A study of Homo sapiens with 4 samples.

Results

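IGF2 and IGFBP1, a ligand and a binding protein of the insulin-like growth factor (IGF) system, are described here by the stretches of their mRNA that were enriched with an antibody against N7-methylguanosine (m7G). Their entries are the rows of 2 peak lists that carry either gene name. The genes were selected from those same lists with their folds and positions already known, so their values are a description and were not tested. They gave 11 of the 8102 peaks in the lists, and 2 of 3769 genes with any peak.

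The study used HepG2, a human line from a hepatocellular carcinoma, grown without treatment. Poly(A) RNA was sequenced after m7G immunoprecipitation (IP, 2 samples) and as input without antibody (2 samples), from stranded libraries. The values analysed are the authors' peak lists, 1 for each IP sample, and input values were not analysed here. Replicate 1 held 3355 peaks and replicate 2 held 4747, and the labels do not state whether separate cultures were used. The lists hold no read numbers, so the depth is unknown and a fold has no counting interval here. Of 10 hepatocyte and hepatoma markers, 5 had a peak in both lists (APOA1, APOB, APOE, SERPINA1 and GPC3), and of 8 markers of other cell types 3 did (CD68, LYZ and ACTA2), but a peak list does not measure expression and so does not check the cell type.

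IGF2 is a secreted growth factor of fetal life that signals through the IGF1 receptor and is cleared by the IGF2 receptor, and it is expressed from the paternal allele in most tissues. IGFBP1 is a secreted liver protein that binds IGFs in the circulation, and insulin represses its transcription. m7G is the base of the mRNA cap and has also been mapped inside mRNAs, and an anti-m7G antibody can bind either form.

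IGF2 lies on the minus strand of chromosome 11 (GRCh38.p14, 2129117 to 2149566, 20450 nt, 5 RefSeq transcripts). It carried 5 peaks in replicate 1 and 4 in replicate 2, numbered here from the 3' end of the gene. Peaks 1 to 4 were found in both lists, and peak 5 was listed in replicate 1 only. Peaks 1 to 4 began at most 4504 nt upstream of the 3' end of the gene span, so each of the repeated peaks lay on the 3' side of the gene.

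Peak 2 had the highest fold enrichment of the gene. It ran from 2129650 to 2130428 in replicate 1 (1 block, 779 nt, fold 4.17) and from 2129800 to 2130428 in replicate 2 (1 block, 629 nt, fold 4.22), which averages 4.20 ± 0.035 (SD, n = 2). The folds of the 2 lists thus differed by 1.01 times, and 3.43% of all 2128 peak pairs shared by the lists were as close or closer. These pairs were taken at any p, and peak 2 was not compared with pairs of similar p. Its midpoint lay upstream of the 3' end by 922 nt in replicate 1 and by 997 nt in replicate 2.

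The peaks on either side of it were weaker. Peak 1, at the very end of the gene, ran from 2129112 to 2129531 in replicate 1 (1 block, 420 nt, fold 1.60) and from 2129112 to 2129501 in replicate 2 (1 block, 390 nt, fold 1.55), a mean of 1.58 ± 0.035 (SD, n = 2). It covered the last base of the annotated span and reached 5 nt past it in both lists. The last base of the gene was covered by 1.19% of all replicate 1 peaks and 1.06% of those in replicate 2. Peak 3 ran from 2130667 to 2131295 in replicate 1 (1 block, 629 nt, fold 1.98) and from 2130637 to 2131295 in replicate 2 (1 block, 659 nt, fold 2.15), a mean of 2.06 ± 0.12 (SD, n = 2).

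Peak 4 was spliced and had the same blocks in both lists. It spanned 2132790 to 2133621 with blocks of 434 nt (2132790 to 2133223) and 105 nt (2133517 to 2133621), 539 nt in all, joined across a gap of 293 nt. Its fold was 1.69 in replicate 1 and 1.66 in replicate 2, a mean of 1.67 ± 0.021 (SD, n = 2). Identical blocks were found in 10.3% of the 2128 shared pairs. Peak 5 was also spliced, with blocks of 148 nt (2135382 to 2135529) and 32 nt (2147566 to 2147597), 180 nt in all, joined across 12036 nt. Its fold was 1.19, near the lowest fold of the list (1.07), with a −log10 p of 3.95 and a −log10 FDR of 2.27, and replicate 2 listed no peak there. The 32 nt block lies within the span of IGF2-AS (2140512 to 2148666), a non-coding RNA named as antisense to IGF2. IGF2-AS had no peak of its own name, which says nothing of its m7G, since the lists are named as mRNA peaks.

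**Figure D1:**
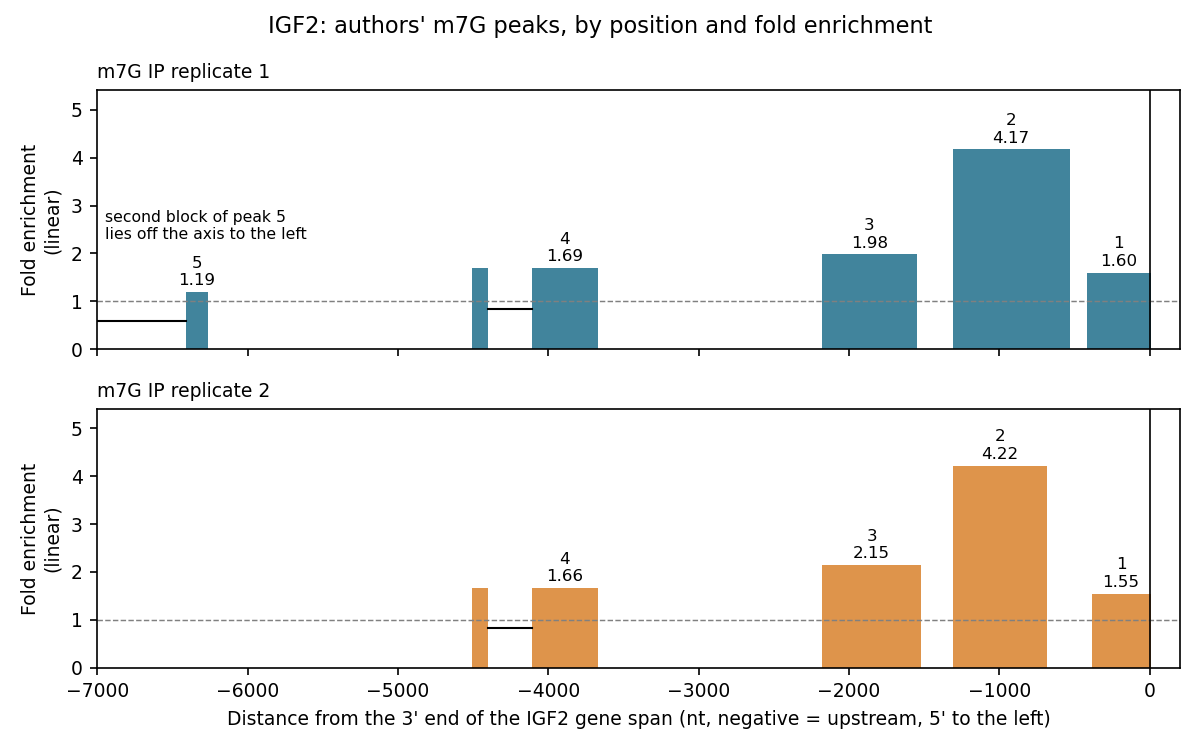
Fold enrichment (linear axis) of each IGF2 peak in m7G IP replicate 1 (upper panel) and replicate 2 (lower panel), against the distance from the 3' end of the gene span in nt, with 5' to the left. Bars are peak blocks, black lines join the blocks of a spliced peak and the dashed line marks a fold of 1. The numbers above the bars give the peak and its fold. Peak 2 stands highest in both panels (4.17 and 4.22), and peak 5 appears in replicate 1 only.

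The order of folds along IGF2 was the same in both lists, with peak 2 first, then peaks 3, 4 and 1. Peak 2 exceeded the next peak by 2.11 times in replicate 1 and by 1.96 times in replicate 2, far more than the lists differed at either peak. Peaks 4 and 1 were the closest neighbours in this order, and the lists ranked them alike although their folds were near each other (1.69 and 1.60 in replicate 1, 1.66 and 1.55 in replicate 2). With 2 values per peak no test of these differences was run, and peaks of 1 mRNA share their molecules and are not replicates.

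Of the IGF2 peaks, 4 of 5 in replicate 1 and 4 of 4 in replicate 2 were shared, meaning that 50% or more of the shorter peak was overlapped by an IGF2 peak of the other replicate. Across all genes this held for 65.1% in replicate 1 and 45.4% in replicate 2, over peaks of any p and length. The members were chosen with this overlap known, so the sharing of their peaks is a description and not a result beside these shares. The IGFBP1 peak was shared too. The shared stretch made up 85.9% of the IGF2 bases under replicate 1 peaks and 98.6% of those under replicate 2 peaks. Edges that did not coincide were 30 or 150 nt apart. Edges of shared unspliced peaks in general were spaced this way: starts were apart by a multiple of 30 nt (within 1 nt, 0 included) in 97.7% of 1326 pairs and ends in 96.8%. Edges in these lists are thus resolved to about 30 nt, and equal edges do not show agreement to the base; this spacing was looked for after the IGF2 edges were seen.

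The gaps between peaks follow from the peak edges and are not a further agreement of the lists. Between peaks 3 and 4, 1494 nt carried no peak in either list. The stretch between peaks 1 and 2 without a peak was 118 nt in replicate 1 and 298 nt in replicate 2, and between peaks 2 and 3 it was 238 nt and 208 nt. Peaks 1 to 4 together covered 2367 of 4510 nt from the first to the last base of the window in replicate 1 (52.5%) and 2217 nt in replicate 2 (49.2%). MIR483, a microRNA gene inside IGF2 (2134134 to 2134209), lies between peaks 4 and 5 under no peak. The lists are named as mRNA peaks, so this says nothing of m7G in the microRNA.

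IGF2 had more peaks than most genes in the lists. With 4 or more peaks, the number of its repeated peaks, there were 47 of 2511 genes (1.87%) in replicate 1. In replicate 2 there were 123 of 3205 (3.84%). With 5 or more there were 18 (0.717%) in replicate 1, where the count for IGF2 includes the weak peak 5. A single peak was found for 76.1% and 69.8% of genes. No exon or UTR models were used, so peaks 1 to 3 were not assigned to coding sequence or UTR; each is 1 unbroken block on the 3' side of the junction in peak 4. The RefSeq gene INS-IGF2, a read-through of the insulin gene into IGF2, has the same 3' end (2129117), and reads of its last exons cannot be told apart from those of IGF2 in these lists.

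IGFBP1 lies on the plus strand of chromosome 7 (GRCh38.p14, 45888488 to 45893660, 5173 nt, 1 RefSeq transcript) and carried 1 peak in each list. The peak ran from 45888450 to 45888990 in replicate 1 (1 block, 541 nt, fold 2.06) and from 45888480 to 45888960 in replicate 2 (1 block, 481 nt, fold 1.81), a mean of 1.94 ± 0.18 (SD, n = 2). Replicate 2's peak lay wholly inside that of replicate 1, 30 nt shorter at each edge, so that the midpoint was 232 nt from the 5' end of the gene in both. The folds differed by 1.14 times, and 31.7% of shared pairs were as close or closer.

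The IGFBP1 peak covered the first base of the gene in both lists. It began 38 nt upstream of the annotated start in replicate 1 and 8 nt upstream in replicate 2, and covered 9.72% and 9.14% of the gene span. Across all genes, the first base was covered by 10.4% of peaks in replicate 1 and 7.87% in replicate 2. The rest of IGFBP1 had no peak. IGFBP1 and IGF2 thus lay at opposite ends: the IGFBP1 peak was 4940 nt from the 3' end at its midpoint, whereas the midpoint of the IGF2 peak nearest to the 5' end of the gene in both lists, peak 4, was 16507 nt from it. IGF2 is transcribed from several promoters, and this distance runs from the most upstream annotated start and includes introns. The part of the cap in the IGFBP1 peak was not tested.

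**Figure D2:**
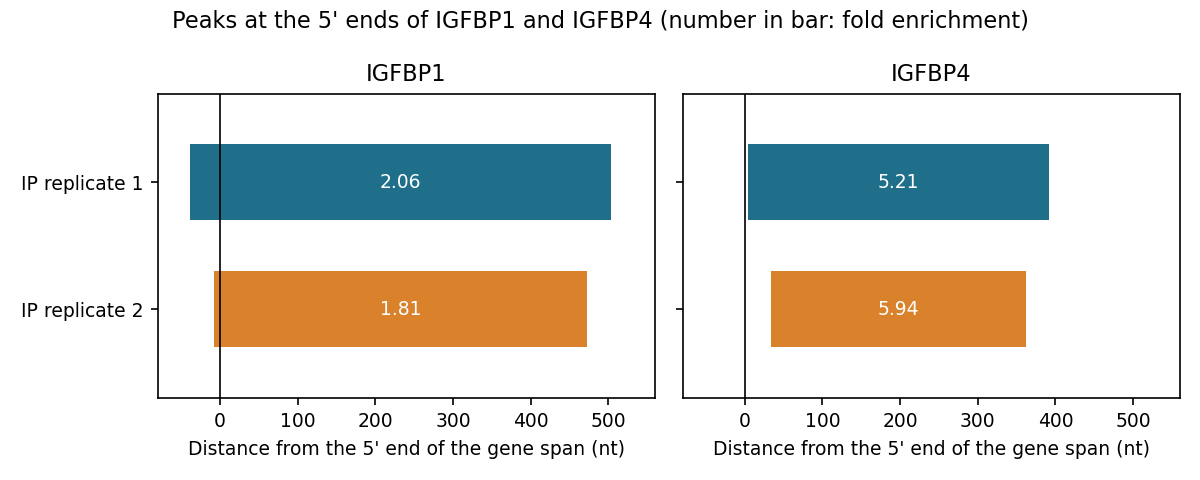
Extent of the unspliced peaks at the 5' ends of IGFBP1 (left panel) and IGFBP4 (right panel) in nt from the 5' end of the gene span (vertical line), with IP replicate 1 above replicate 2 and the fold printed in each bar. The IGFBP1 peak crosses the start of the gene in both lists (folds 2.06 and 1.81), and the IGFBP4 peak begins just inside it (5.21 and 5.94).

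Strong statistics and modest folds went together in both genes. The authors' −log10 p of IGF2 peak 2 was 431 in replicate 1 (the 5th strongest of the list) and 534 in replicate 2 (the 2nd strongest). For IGF2 peak 1 it was 318 and 260, and for the IGFBP1 peak 411 and 243. IGF2 peak 4 had 117 and 136, and peak 3 had 44.2 and 59.3. The p itself was listed as 0 for IGF2 peak 2 in both lists and for IGFBP1 in replicate 1. The median over all peaks was 5.5 in replicate 1 and 5.07 in replicate 2, so each of these peaks stood at or above the 95.5th percentile by p of its list.

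By fold the same peaks ranked low, with IGF2 peak 2 as the exception. IGF2 peak 2 was at the 57.3rd percentile of folds in replicate 1 and the 56.6th in replicate 2. The IGFBP1 peak was at 18.3 and 9.71, IGF2 peak 3 at 16.9 and 16.1, peak 4 at 11.2 and 7.35, and peak 1 at 8.85 and 5.20, while peak 5 was at 1.07 in replicate 1. All but peak 2 lay below the lower quartile of folds, 2.39 in replicate 1 and 2.60 in replicate 2. The median fold of all peaks was 3.71 and 3.87.

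Among peaks with a −log10 p of at least 100, IGF2 was the only gene with more than 1 entry. It had 3 (peaks 1, 2 and 4) of the 46 such peaks in replicate 1 and 3 of the 42 in replicate 2, and every other gene had 1. The same held at 200, where IGF2 had 2 peaks in each list, and not at 50, where 5 other genes in replicate 1 and 7 in replicate 2 had more than 1, though none had 3. The median fold of the peaks at 100 or more was 4.71 in replicate 1 and 4.68 in replicate 2. A fold at or below that of IGFBP1 was seen at 7 of the 46 and 6 of the 42, and these counts include IGFBP1 itself and IGF2 peaks 1 and 4. The thresholds of 100, 50 and 200 were chosen after the values were seen.

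**Figure D3:**
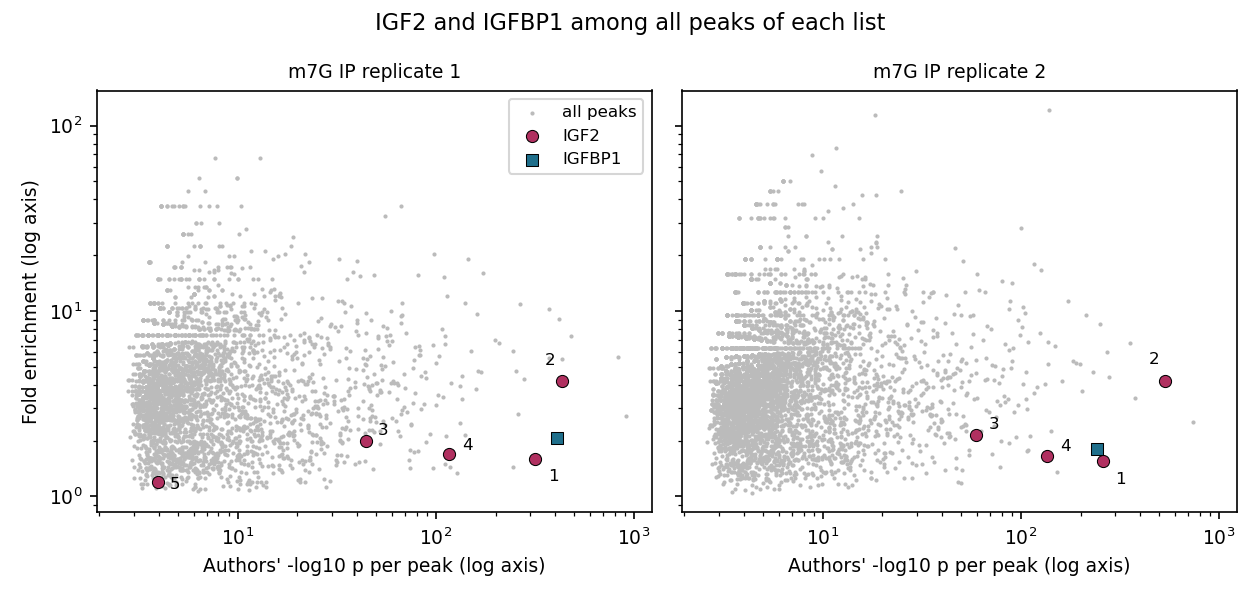
Fold enrichment against the authors' −log10 p (both axes logarithmic) for every peak of m7G IP replicate 1 (left) and replicate 2 (right), with IGF2 peaks as numbered circles and the IGFBP1 peak as a square. IGF2 peaks 1 and 4 and IGFBP1 sit at the lower right, with −log10 p from 117 to 411 and folds from 1.55 to 2.06, and IGF2 peak 2 lies above them at 4.17 and 4.22.

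The repeated peaks were also long. IGF2 peaks 1 to 4 measured 390 to 779 nt and the IGFBP1 peak 541 and 481 nt, against a median of 151 nt in both lists, and each was at or above the 94.0th percentile of length. Peaks of 400 nt or longer in general did not have such low folds: their median was 3.60 in replicate 1 (213 peaks) and 4.85 in replicate 2 (279 peaks). mRNA abundance is not in these lists, and its part in the p-values and lengths was not tested.

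The rest of the IGF system was described from a list of 47 genes by role. A peak in either list was found for 22 of them, IGF2 and IGFBP1 included, and 16 of the 22 (72.7%) had a peak in both, where the share over all genes with a peak was 51.7%. Since members of the list were named with earlier results known, this share was not tested. Outside IGF2 and IGFBP1 the counts were 14 of 20 (70.0%). No share of all expressed genes with a peak was available to set beside 22 of 47 or the counts by role below. Those counts therefore do not show whether peaks were more frequent in this list than elsewhere. Genes with no peak can be unmethylated, unexpressed or below the depth of the experiment, and the lists do not separate these.

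Among ligands and receptors, IGF2 was the only ligand with a peak, since IGF1 and INS had none, and all 3 receptor genes had peaks in both lists. IGF1R, which encodes the signalling receptor for IGF1 and IGF2, had 2 peaks in replicate 1 (folds 6.36 and 3.71) and 4 in replicate 2 (6.09, 4.66, 4.40 and 2.97). Its strongest peak had a midpoint 480 nt from the 5' end of the gene in replicate 1 and 495 nt in replicate 2. IGF2R, the clearance receptor, had a peak near its 5' end with a fold of 2.80 (midpoint at 137 nt) in replicate 1, which was spliced over 2 blocks with a fold of 4.14 (211 nt) in replicate 2. A further IGF2R peak, with a fold of 6.68, was listed in replicate 1 only. INSR, the insulin receptor, had 1 peak with folds of 3.21 and 2.48, and its midpoint lay 4924 and 4864 nt from the 3' end.

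Of 9 genes for binding proteins and the acid-labile subunit, IGFBP1 and IGFBP4 had peaks, both in both lists. IGFBP4, a secreted inhibitor of IGF action, had its main peak on chromosome 17 from 40443454 to 40443841 in replicate 1 (fold 5.21) and from 40443484 to 40443811 in replicate 2 (fold 5.94). Like that of IGFBP1, it narrowed by 30 nt at each edge in replicate 2 and kept its midpoint, here 197 nt from the 5' end. The −log10 p was 411 and 243 for IGFBP1, against 9.26 and 11.5 for IGFBP4, whereas the folds of IGFBP1 were the lower ones in both lists. IGFBP4 also had 2 weaker spliced peaks in replicate 2 (2.88 and 3.05). IGFBP3, whose span lies 18585 nt beyond that of IGFBP1 and which encodes the main circulating IGF carrier, had no peak, nor did IGFBP2, IGFBP5, IGFBP6, IGFBP7, IGFBPL1 or IGFALS. Of 5 proteases and protease inhibitors of binding proteins, STC2, an inhibitor of the IGFBP protease PAPPA, had peaks, with highest folds of 2.91 and 5.37.

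Of the RNA-binding proteins named for IGF2 mRNA, IGF2BP2 had a peak with the same edges in both lists (chromosome 3, 185824890 to 185825039, folds 7.88 and 4.89), 78 nt from its 5' end at the midpoint. IGF2BP1 had a peak in replicate 2 only (3.30), and IGF2BP3 had none. H19, the imprinted non-coding gene 127851 nt from the 3' end of IGF2, had no peak; the lists are named as mRNA peaks, so its absence says nothing of its m7G.

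Of 23 genes for adaptors and downstream signalling, 13 had a peak in either list and 8 in both. The kinase genes AKT1 and AKT2 had highest folds of 8.81 and 6.75, and of 11.3 and 8.48. PIK3R2, a regulatory subunit of PI3 kinase, had 5 and 3 peaks with highest folds of 5.14 and 2.77, which belong to different peaks. The adaptor SHC1 had a shared peak with folds of 3.83 and 5.42, and RHEB of the mTOR pathway had one with 3.13 and 2.60. The adaptor GRB2 had a shared peak with folds of 2.28 and 1.75, and a further peak in replicate 2 only (5.58). The highest folds of the adaptor IRS1 (2.25 and 6.33) and of MTOR (4.30 and 3.80) lay at different places in the lists, and these genes had no shared peak. FOXO4 had a peak in replicate 1 only (6.60), and FOXO1 (4.60), FOXO3 (14.8), PDPK1 (5.54) and TSC2 (6.33) had one in replicate 2 only. The 6.33 of IRS1 and TSC2 is the commonest fold of replicate 2, listed at 196 peaks.

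**Figure D4:**
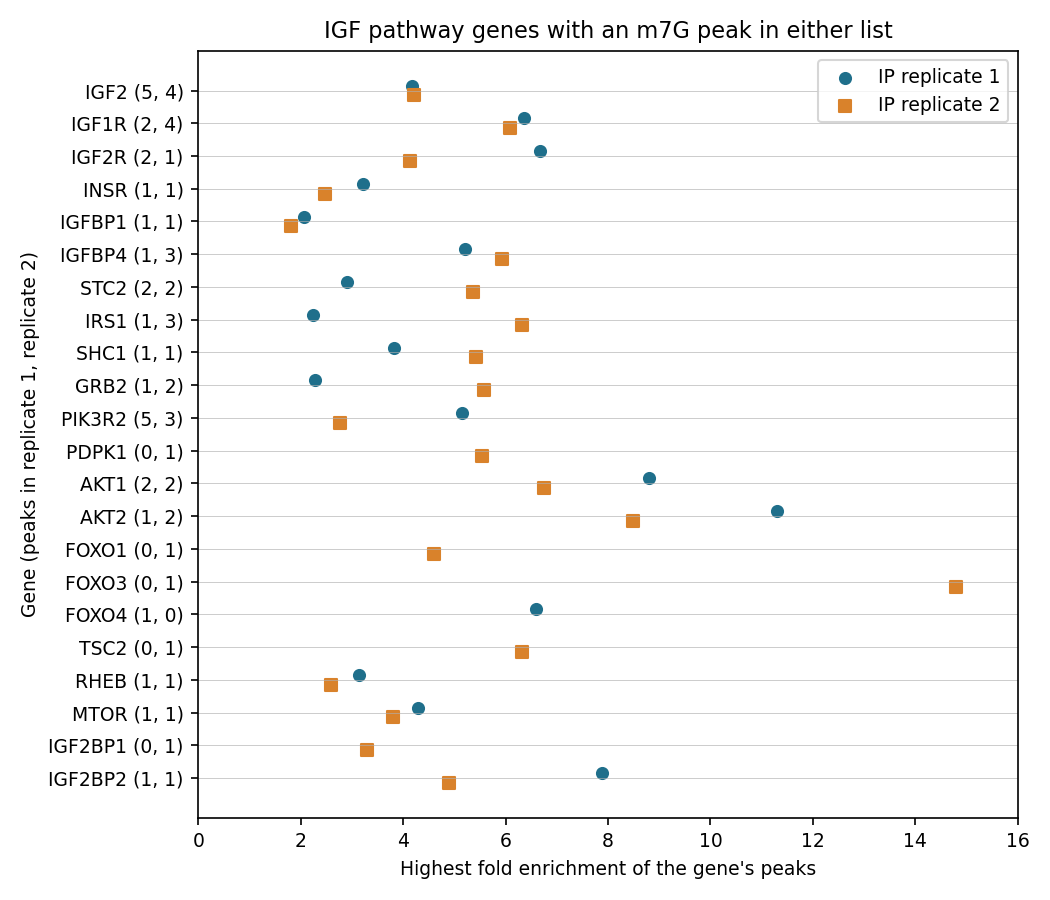
Highest fold enrichment of each gene's peaks (linear axis) for the 22 IGF pathway genes with a peak in either list, with circles for IP replicate 1 and squares for replicate 2 and the number of peaks per list in parentheses. IGFBP1 has the lowest value in each list (2.06 and 1.81), and the 2 points of IGF2 (4.17 and 4.22) lie almost on each other.

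IGF2 and IGFBP1 were set beside the other genes of this list by p and by length. The repeated peaks of IGF2 and IGFBP1 had −log10 p of 44.2 to 534 and lengths of 390 to 779 nt. IGF2 peak 5, listed in replicate 1 only, had 3.95 and 180 nt, inside the ranges of the other genes. The peaks of those genes were not limited to repeated ones. The 23 peaks of the other genes in replicate 1 had −log10 p of at most 32.1 and lengths of 60 to 388 nt, and the 32 in replicate 2 had at most 26.7 and 60 to 329 nt. Their median folds were 3.21 and 3.97. In each list 1 of these peaks, that of AKT2, covered the first base of its gene, as the IGFBP1 peak did. IGF2 and PIK3R2 were the genes of the list with the most peaks in replicate 1, 5 each, and IGF2 and IGF1R in replicate 2, 4 each. These are descriptions without a test.

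Peaks with folds most like those of the members were found by the distance between log2 folds over the 2 lists, with 3 genes outside the pathway list for each shared peak. For IGF2 peak 2 these were NSMF (4.20 and 4.17), VWA1 (4.11 and 4.20) and BAX (4.24 and 4.22). For peak 1 they were SEPTIN9 (1.61 and 1.55), ICAM1 (1.60 and 1.57) and ACSL3 (1.61 and 1.57), and for peak 4 VASP (1.69 and 1.67), MYC (1.69 and 1.64) and ACTB (1.67 and 1.64). For peak 3 they were GMDS (1.99 and 2.17), POR (1.94 and 2.15) and SLC3A2 (1.95 and 2.12), and for IGFBP1 VHL (2.08 and 1.82), SLC17A9 (2.07 and 1.88) and IRX3 (2.05 and 1.89). Their −log10 p ranged from 4.41 to 61.7 and was, in each list, below that of the IGF2 or IGFBP1 peak they resembled: at most 61.7 beside IGF2 peak 2, and at most 22.8 beside peak 3, which had 44.2 and 59.3. This likeness rests on 2 values per peak.

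The nearest genes with a peak within 1 Mb of IGF2 were TSSC4, 251 kb away on the side of higher coordinates (folds 4.69 and 6.54), and the troponin gene TNNI2, 287 kb away on the other side, with a fold of 38.0 in replicate 2 only (−log10 p 4.59). IGFBP1 had no such neighbour within 1 Mb.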

How the data were processed

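HepG2 poly(A) RNA was sequenced after m7G IP and as input, per the labels' protocols; STAR and GRCh38 are named, without a version or role, per the submitters' processing notes. For the peak caller and its filters, nothing is stated in the labels or headers. Each deposited list gives a fold ratio, a p-value, and log10 p and log10 FDR scores per peak, which are the authors' values; the libraries behind the fold are not named. The p-value is listed as 0 for some peaks, so log10 p was used.

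Peaks were taken by gene name. Positions are 1-based. Distances run from a peak's midpoint along its blocks to the ends of the RefSeq gene span (GRCh38.p14; 3352 and 4739 peaks matched). Shared peaks lie in the same gene and strand and overlap by 50% or more of the shorter one, matched 1 to 1 by longest overlap. A percentile is the share of a list's peaks at or below a value. No test was run. The members and lists were chosen with earlier results of these data known. Genes named are IGF2, IGFBP1, IGF pathway genes with a peak, the markers with a peak, the 3 nearest by fold to each shared peak, and the nearest gene with a peak on each side within 1 Mb; other genes are named only as lacking a peak. Some genes that this rule or the marker list names are not reported here and were left out of the counts of those lists. Overlap functions were tested on replicate 1 peaks that were either copied or moved far away, which did not test partial overlap. Sequences were not used. Python 3.11.15, numpy 2.4.6, pandas 2.3.3 and matplotlib 3.10.9 were used.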

Additional observations from a re-analysis of the deposited data

How the results depend on the processing

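The 5 shared peaks of IGF2 and IGFBP1 were also shared with an overlap of 1 base, by construction, and with 80% reciprocal overlap. The share of all peaks that meet the 80% rule was not counted. Of the 11 peaks in all, 11 remained at a −log10 FDR of at least 2. The weakest value in either list was 1.32, and the share of all peaks that reach 2 was not counted. Among the better 50% of each list by p, 10 remained and IGF2 peak 5 was lost. Without 1 replicate the number was 5 to 6, by construction. Leaving out a replicate left the fold of the other list, by construction. The ranges were thus 1.81 to 2.06 for IGFBP1, and 1.55 to 1.60, 4.17 to 4.22, 1.98 to 2.15 and 1.66 to 1.69 for IGF2 peaks 1 to 4. Divided by the median fold of its list, the mean fold was 0.511 for IGFBP1 and 0.416, 1.11, 0.545 and 0.442 for IGF2 peaks 1 to 4, so only IGF2 peak 2 lay above the median. The mean percentile by fold of IGF2 peak 2 was 57.0, and 55.1 among peaks with the same number of blocks and 55.5 among shared peaks; for IGF2 peak 3 it was 16.5, and 14.7 and 17.9. Measured to the nearest edge in place of the midpoint, by construction a smaller distance, the mean was -23 nt from the 5' end for IGFBP1 (upstream of it) and -5, 608, 1535 and 3673 nt from the 3' end for IGF2 peaks 1 to 4. Of the pathway genes with a peak in both lists (16), 14 had a shared peak. When only the better 50% by p was kept, 11 had a peak in both. IGF2 and IGFBP1, chosen with their peaks known, are included in the 14 and the 11. The same shares over all genes with a peak in both lists were not counted, so these numbers are a description. Genes other than IGF2 with more than 1 peak of high −log10 p numbered 0 in each list at 100 or 200. At 50 the sum over the lists was 12, where a gene found in both lists would be counted in each. These thresholds were chosen after seeing the data. No paired analysis was possible because the input samples had no values here to pair with the IP samples. The unknown depth limits what could be listed as a peak.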
